A study of Mus musculus with 18 samples.

Results

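The comparison examined here asks whether the change that defactinib makes to LPS-stimulated macrophages depends on IRF5. It used the 12 LPS-stimulated RNA-seq libraries of the 18 in the series, in 4 groups of 3. Bone marrow cells of WT and IRF5-/- mice (IRF5 KO) were grown for 8 days with GM-CSF into bone marrow-derived macrophages (BMDMs). All 4 groups received 100 ng/ml LPS for 2 h, and before it, for 1 h, either 3.5 µM defactinib or DMSO, its vehicle. They are called WT LPS DMSO and WT LPS defactinib, with IRF5 KO in place of WT for the knockout cells. The other 6 libraries, WT and IRF5 KO cells at 0 h of LPS, were kept for the shared estimate of spread and for levels before stimulation. Their labels give DMSO as the treatment while their count columns are marked UT, so whether they received the vehicle is not settled, and they are called unstimulated. Each library held between 39282181 and 61949143 counted read pairs, with a median of 44772169 over the 12.

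LPS is sensed by TLR4 on macrophages, whose adaptors activate NF-kB, MAP kinases and interferon regulatory factors, and these switch on cytokine genes within hours. IRF5 is one of those regulatory factors, and is best known in macrophages for driving IL-12, IL-23, IL-6 and TNF. Defactinib inhibits the related tyrosine kinases FAK and PYK2, and the study examined PYK2 as a kinase that acts on IRF5. If an effect of the inhibitor ran through IRF5, it would differ between the genotypes, which is what an interaction measures.

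The interaction of a gene was the defactinib effect in WT cells minus the defactinib effect in IRF5 KO cells, on the log2 scale. A lower interaction means that defactinib took the gene further down, or less far up, in WT than in IRF5 KO cells, and a higher one the reverse. Levels are given as CPM (the counts of a gene scaled to a common library size) with edgeR's TMM factors and are compared only between libraries and not between genes. A call needed an adjusted p below 0.05 in edgeR's quasi-likelihood F test together with a log2 value beyond 1, and errors written after ± are standard errors unless named as SD.

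Of the 3 libraries labelled IRF5 KO LPS DMSO, R3 stood apart from R1 and R2, and every interaction rests on them. A chi-square of the counts, which sampling noise alone would put at 1 per gene, was 2.33 between R1 and R2, but 442 between R1 and R3 and 426 between R2 and R3. The value for R1 and R2 was the lowest of the 18 pairs within groups, and the 15 pairs of the other groups ranged from 3.83 to 184, so R1 and R2 were closer than any other replicates but differed by more than sampling noise. Gm26917, an abundant non-coding transcript, held 2.57% and 2.56% of the counts of R1 and R2, and 1.06% to 4.15% in the 6 defactinib libraries. In R3 it held 0.0125%, and in the WT LPS DMSO and unstimulated libraries between 0.00546% and 0.0154%. Thus R1 and R2 resembled the defactinib libraries in this transcript and R3 resembled the libraries without defactinib. In this respect R1 and R2 go against their DMSO label. Whether the labels of these libraries are right was not tested, and if R1 and R2 were mislabelled, each interaction and IRF5 KO effect that uses them would not be the comparison its name gives. They are described here as labelled, and what sets them apart from R3 was not tested. For this reason the interaction was also fitted with R1, R2 or R3 as the only IRF5 KO LPS DMSO library, and a gene was said to hold with each library when it was called with the same sign in all 3 fits. These fits share 15 of their 16 libraries and take the lone library to vary like the other groups, so they show dependence on 1 library and are not separate experiments.

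Irf5 itself was counted at 587, 606 and 650 CPM in unstimulated WT and at 335, 396 and 364 CPM in unstimulated IRF5 KO libraries. After LPS the IRF5 KO libraries overlapped with WT: Irf5 stood at 434, 475 and 443 CPM in WT LPS DMSO and at 435, 432 and 345 CPM in IRF5 KO LPS DMSO. The counts add up all exons of Irf5, including any that the knockout retains, so these levels do not check the genotype labels. The interaction of Irf5 was -0.58 ± 0.23 (adjusted p = 0.060 from edgeR). Ptk2b, which encodes PYK2, had an interaction of -0.63 ± 0.12 and Ptk2, which encodes FAK, one of 0.73 ± 0.21, and neither reached the fold threshold. With library size alone Ptk2 did, at 1.05 (adjusted p = 0.000894 from edgeR).

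With all libraries, 3568 of 15663 tested genes (22.8%) had an interaction, 1647 higher (10.5%) and 1921 lower (12.3%). With R1 alone the count was 4687 (29.9%), with R2 alone 4635 (29.6%) and with R3 alone 3190 (20.4%), of which 1535 were lower (9.8%). An interaction held with each library for 1839 genes (11.7%), of which 625 were higher (3.99%) and 1214 lower (7.75%). Another 2269 genes (14.5%) were called with R1 and with R2 but not with R3, 865 of them higher (5.52%). With R3 but not with R1 or R2, 1027 (6.56%) were called. In 62 (0.396%) both R1 and R2 were called in the direction opposite to R3. The remaining genes were called in no single-library fit (9484, 60.6%) or in another pattern (982). The latter include genes called in opposite directions with R3 and with only R1 or only R2. Of the genes that held with each library, all 625 higher and 1209 of the 1214 lower were also called with all libraries together. The counts in both directions depend on scaling, since library size alone in place of TMM moved the median interaction of all genes from 0.12 to 0.45 on the log2 scale, and gave 1336 higher and 752 lower genes that held with each library. The 1839 became 737 (144 higher, 593 lower) with glmTreat, which tests against the fold threshold, 3462 with no fold threshold, and 4170 without IRF5 KO LPS DMSO R3, where only R1 and R2 had to agree.

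**Figure D1:**
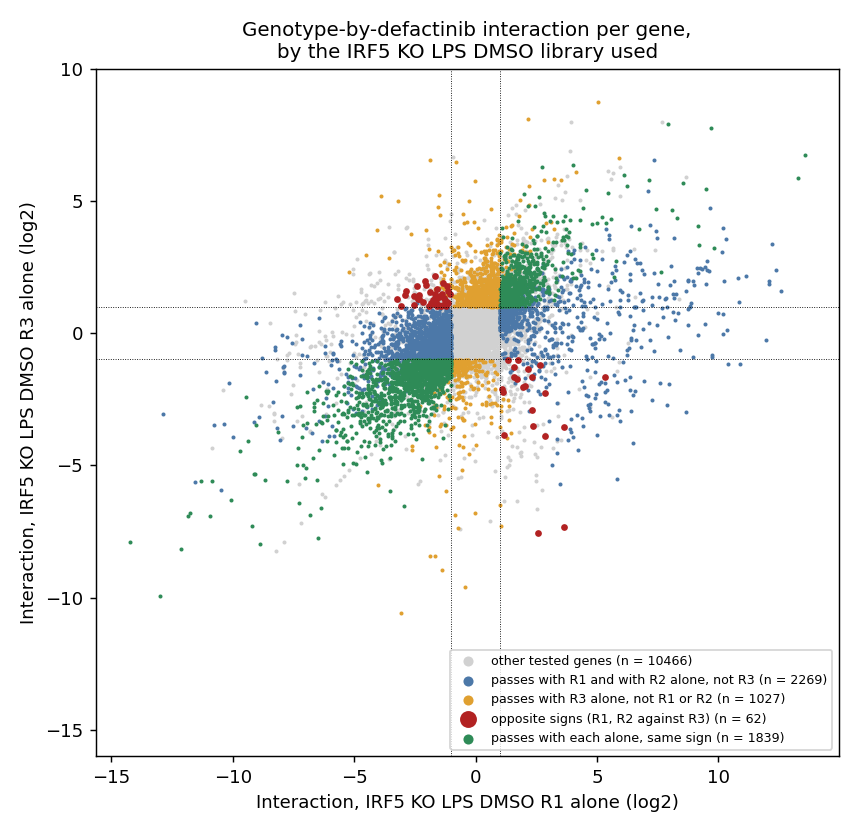
Each point is a tested gene, with its log2 interaction when R1 (horizontal) or R3 (vertical) was the only IRF5 KO LPS DMSO library, coloured by the single-library fits in which it was called; dotted lines mark a log2 value of 1 in each direction. The 1839 green genes lie beyond 1 on both axes with the same sign, the 2269 blue genes beyond 1 with R1 but not called with R3, the 1027 orange genes the reverse, and the 62 red genes have opposite signs.

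The IRF5 KO arm shows where the library enters. Defactinib against DMSO called 4552 genes in WT cells (29.1%), 1636 higher (10.4%) and 2916 lower (18.6%). In IRF5 KO cells it called 144 genes with all libraries (0.919%), 119 of them lower (0.76%), 76 with R1 alone (0.485%), 75 with R2 alone (0.479%) and 3185 with R3 alone (20.3%). The count of 144 was unstable: it was 523 with DESeq2 and 0 with glmTreat (447 at an unadjusted p below 0.05), and leaving out 1 library moved it to between 20 (without IRF5 KO LPS defactinib R1) and 897 (without IRF5 KO LPS DMSO R2). It was 885 without IRF5 KO LPS DMSO R1, 232 without R3 of that group, 30 and 21 without IRF5 KO LPS defactinib R2 and R3, 258 without WT LPS defactinib R3, 92 without WT LPS DMSO R1, and 64 to 80 without any of the unstimulated libraries other than IRF5 KO R2. Against R3 alone, 782 genes were higher with defactinib (4.99%) and 2403 lower (15.3%). Of the 1214 lower genes, 1119 were called lower with defactinib in WT (92.2%). With R3 alone, 237 of the 1214 were called lower in IRF5 KO cells (19.5%) and 64 higher (5.27%), shares near those of all tested genes. Of the 625 higher genes, 492 were called higher in WT (78.7%, against 10.4% of all tested genes), and with R3 alone 16 were called higher (2.56%) and 110 lower (17.6%) in IRF5 KO cells. These calls use the same libraries as the rule and are given as a description.

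Most of the genes that held lower were genes that LPS raises. In 957 of the 1214 (78.8%) all WT LPS DMSO libraries lay above all WT unstimulated libraries, against 31.8% of tested genes. Of the 625 that held higher, 528 (84.5%) had all WT LPS DMSO libraries below all unstimulated ones, against 32.8% of tested genes. The WT LPS DMSO libraries belong to the rule too, so part of this follows from the choice of genes. In all 3 libraries labelled IRF5 KO LPS DMSO, 739 of the 1214 lower genes (60.9%) lay between the means of WT LPS defactinib and WT LPS DMSO, against 15.7% of tested genes. By median level, the 1214 genes stood at 5.43 to 5.54 log2 CPM in WT LPS DMSO and 3.12 to 3.51 in WT LPS defactinib. They stood at 4.24, 4.21 and 4.87 in IRF5 KO LPS DMSO R1, R2 and R3 and at 4.69 to 4.71 in IRF5 KO LPS defactinib.

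Among cytokine genes, 13 of the 32 tested held lower with each library (40.6%, against 7.75% of all tested genes) and none held higher. They were Il12b, Il6, Il1a, Tslp, Tnfsf15, Osm, Il23a, Il27, Csf1, Lif, Tnf, Csf3 and Tnfsf4, and another 8 passed lower with R1 and R2 only (25%, against 8.96%). The median effect of defactinib on the list was -3.02 in WT. In IRF5 KO it was 0.44 with R1 alone and -0.54 with R3 alone, while the median over all tested genes was 0.086 in WT, 0.0026 with R1 and -0.0077 with R3.

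Il12b (ENSMUSG00000004296; chr11:44400063-44414033, plus strand, mm10), the p40 subunit shared by IL-12 and IL-23, gave the clearest case. It stood at 2137, 2759 and 2228 CPM in WT LPS DMSO and at 65, 15.8 and 28.7 CPM in WT LPS defactinib. In IRF5 KO cells it stood at 610, 616 and 577 CPM with DMSO and at 1079, 1017 and 1078 CPM with defactinib, from 2.5 to 6.27 CPM before LPS in either genotype. The WT groups did not overlap and fell, the IRF5 KO groups did not overlap and went the other way, and R3 lay beside R1 and R2. The interaction was -6.84 ± 0.52 (adjusted p = 2.5e-07 from edgeR) with all libraries and -6.82, -6.80 and -6.88 with R1, R2 and R3 alone. The IRF5 KO rise alone did not pass, at 0.79 ± 0.56 with R1 and 0.86 ± 0.55 with R3.

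Il6, the acute-phase cytokine (chr5:30013114-30019981, plus strand, mm10), stood at 1095, 950 and 833 CPM in WT LPS DMSO and at 3.84, 0.674 and 13.6 CPM with defactinib. The libraries labelled IRF5 KO LPS DMSO held 28.3, 27.9 and 382 CPM, and those with defactinib 104, 92.8 and 102 CPM. R3 lay above the defactinib libraries and R1 and R2 below them, so the direction of the IRF5 KO effect depended on the library while the interaction did not: it was -9.13 ± 1.47 with R1 and -5.34 ± 1.26 with R3. Il1a, an alarmin cytokine, stood at 3297, 2306 and 2618 CPM in WT LPS DMSO and at 178, 47.5 and 338 CPM with defactinib. In IRF5 KO it stood at 956, 953 and 1763 CPM with DMSO and at 2608, 2378 and 2601 CPM with defactinib, and its interaction was -4.92 ± 0.68 with all libraries and -4.36 ± 0.99 with R3 alone. Il23a, the p19 subunit of IL-23, stood at 40.9, 28.8 and 25.7 CPM in WT LPS DMSO and at 4.88, 1.59 and 1.77 CPM with defactinib. The IRF5 KO level was 14.2, 14.4 and 38.8 CPM with DMSO and at 28.2, 29.2 and 30.6 CPM with defactinib, and the interaction was -3.91 ± 0.58 (adjusted p = 1.0e-04 from edgeR). R3 again was the highest of the 3.

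Tnf, the central inflammatory cytokine, differed from Il6, Il1a and Il23a in having R3 as the lowest of the 3 libraries. It stood at 2611, 2143 and 2265 CPM in WT LPS DMSO and 1067, 723 and 664 CPM in WT LPS defactinib. The knockout libraries held 2491, 2495 and 1141 CPM with DMSO and 3563, 3583 and 3494 CPM with defactinib. Here R1 and R2 were within the range of WT LPS DMSO and R3 was lower, and the interaction was -2.31 ± 0.34 with all libraries and -3.12 ± 0.29 with R3 alone. Il1b passed with R1 (-4.69 ± 1.40) and R2 but not with R3 (-2.96 ± 1.29, adjusted p = 0.10 from edgeR). It stood at 563, 568 and 1825 CPM in IRF5 KO LPS DMSO, and at 201, 64.1 and 930 CPM in WT LPS defactinib. Il12a, the p35 subunit of IL-12, passed in none, at -3.16 ± 1.33 with all libraries. It passed under 4 of the alternatives: without WT LPS defactinib R3 (-6.48), without IRF5 KO LPS DMSO R3 (-4.37), with limma-voom (-5.42) and with a replicate block (-4.65). Il10, an anti-inflammatory cytokine, was at or below 0.417 CPM in all libraries and passed with R1 and R2 only.

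**Figure D2:**
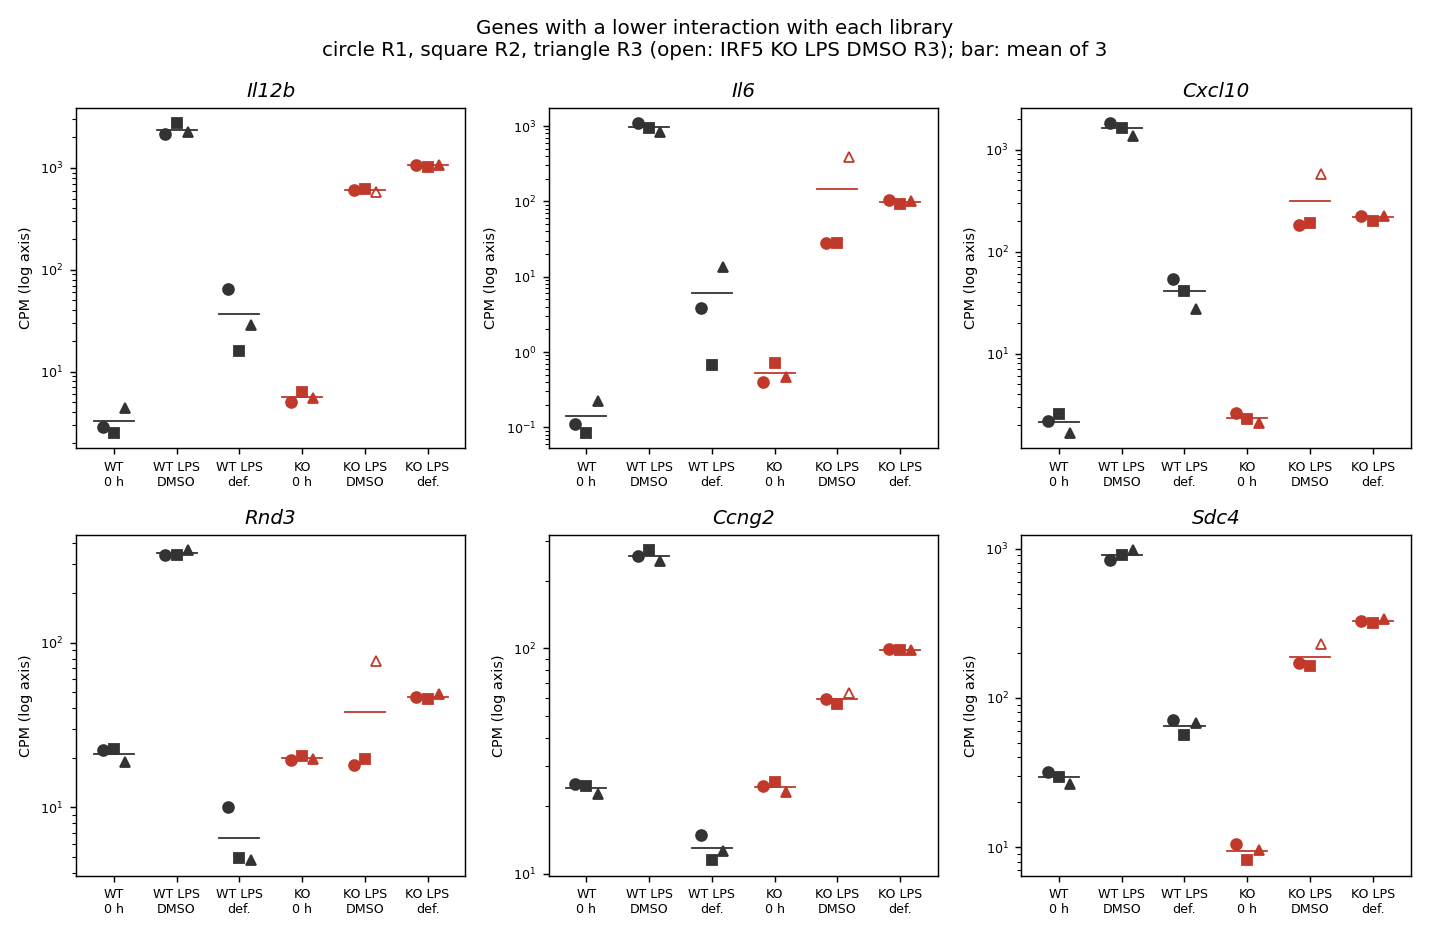
CPM on a log axis in every library for 6 genes with a lower interaction with each library; points are single libraries of WT (black) and IRF5 KO (red), bars are means of 3, and the open triangle is IRF5 KO LPS DMSO R3. In all 6 genes the 3 WT LPS DMSO libraries lie above the 3 WT LPS defactinib libraries, as for Il12b from 2137 to 2759 against 15.8 to 65 CPM, and the 6 IRF5 KO LPS libraries lie between them.

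Of the 20 chemokine genes, 6 held lower (30%, against 7.75% of all tested genes): Cxcl10, Ccl3, Cxcl1, Ccl4, Ccl2 and Cxcl2. Another 6 passed lower with R1 and R2 only (30%, against 8.96%). Cxcl10, a chemokine for activated T cells (chr5:92346638-92348889, minus strand, mm10), stood at 1818, 1644 and 1362 CPM in WT LPS DMSO and 53.7, 40.9 and 27.3 CPM with defactinib. In IRF5 KO it stood at 180, 188 and 576 CPM with DMSO and 222, 201 and 225 CPM with defactinib. Its interaction was -4.76 ± 0.52 with all libraries and -3.86 ± 0.37 with R3 alone. Ccl3, which attracts monocytes, stood at 2627, 1904 and 2105 CPM in WT LPS DMSO and 294, 209 and 259 CPM with defactinib. In IRF5 KO the values were 448, 452 and 1062 CPM with DMSO and 819, 802 and 816 CPM with defactinib, an interaction of -3.43 ± 0.37. Ccl4, its neighbour in the same gene cluster, had an interaction of -2.51 ± 0.32 and held with each library. Ccl5 did not pass with all libraries (0.29 ± 0.86) or in any single-library fit. WT LPS defactinib R3 held 2618 CPM of it and the other 2 libraries of that group held 321 and 283 CPM, and without R3 the interaction was -1.51 ± 0.39 and was called (adjusted p = 0.00718 from edgeR). It changed sign too without IRF5 KO LPS DMSO R3 (-0.27), with limma-voom (-0.63) and with a replicate block (-0.33).

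Regulators of NF-kB were the list with the largest share of genes that held lower, 14 of 26 (53.8%, against 7.75% of all tested genes). They comprised the subunits Nfkb1 and Rel, the nuclear partner Bcl3, the inhibitors Nfkbia, Nfkbie and Nfkbid, the RNA decay factor Zc3h12a, the A20-binding Tnip1 and Tnip3, the restraining Socs1, Socs3 and Irak3, and the induced genes Tnfaip2 and Icam1. Nfkbia, which encodes IkBa (chr12:55489410-55492647, minus strand, mm10), stood at 896, 868 and 839 CPM in WT LPS DMSO and 548, 454 and 456 CPM with defactinib. The IRF5 KO level was 904, 892 and 373 CPM with DMSO and 1037, 1144 and 1050 CPM with defactinib, and its interaction was -1.41 ± 0.31 with all libraries, -1.09 with R1 and -2.33 with R3. Icam1, an adhesion molecule for leukocytes, showed little difference between the libraries. Its interaction was -2.67 ± 0.23, and it stood at 738, 743 and 671 CPM in IRF5 KO LPS DMSO. Nfkb1 had an interaction of -1.30 ± 0.25, and lost its call with library size alone (-0.997). Tnfaip3, which encodes the ubiquitin editor A20, went another way: it stood at 3880 and 3927 CPM in R1 and R2 but at 391 CPM in R3, and passed with R3 only (-2.69 ± 0.25). With all libraries its interaction was 0.08 ± 0.71, and it changed sign with limma-voom, with a replicate block and without any of IRF5 KO LPS DMSO R1, IRF5 KO LPS DMSO R2 or WT LPS defactinib R1.

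Of 25 Toll-like receptor and adaptor genes, 7 held lower (28%, against 7.75% of all tested genes): Tlr2, Tlr6, Tlr7, Irak2, Tbk1, Ripk2 and Cd14. Another 9 passed lower with R1 and R2 only (36%, against 8.96%), Tlr4 among them, and 8 were called in no single-library fit. Cd14, the LPS co-receptor, stood at 468, 372 and 326 CPM in WT LPS DMSO and 108, 63.9 and 134 CPM with defactinib. The knockout libraries held 191, 192 and 329 CPM with DMSO and 379, 388 and 368 CPM with defactinib, an interaction of -2.60 ± 0.34. Of 9 IRF genes, Irf1 and Irf4 held lower (22.2%, against 7.75%) and Irf2, Irf8 and Irf9 passed lower with R1 and R2 only (33.3%, against 8.96%). Irf1, an inducible activator of interferon and IL-12 genes, stood at 543, 622 and 570 CPM in WT LPS DMSO and 22.8, 19.1 and 19 CPM with defactinib. In IRF5 KO it stood at 51.4, 50.5 and 213 CPM with DMSO and 96.1, 98.1 and 95.7 CPM with defactinib, and its interaction was -4.71 ± 0.56. Irf4, a regulator of GM-CSF-grown and dendritic cells, had an interaction of -3.91 ± 0.61. In both genes R3 was above R1 and R2 and below WT LPS DMSO.

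Genes that restrain MAP kinase signalling also held lower, 8 of 16 (50%, against 7.75% of all tested genes): the dual-specificity phosphatases Dusp2, Dusp4, Dusp5, Dusp10, Dusp14 and Dusp16, and the Sprouty genes Spry1 and Spry2. Dusp5, a nuclear ERK phosphatase, stood at 80.3, 76.9 and 68.2 CPM in WT LPS DMSO and 19.1, 11 and 12.9 CPM with defactinib. The IRF5 KO level was 171, 174 and 118 CPM with DMSO and 192, 214 and 196 CPM with defactinib, an interaction of -2.76 ± 0.27. Spry1, an inhibitor of receptor tyrosine kinase signalling, had an interaction of -4.05 ± 0.37. In the single-library fits Dusp1, which acts on p38 and JNK, passed with R3 only (-2.81 ± 0.28). It stood at 70.2 and 70.4 CPM in R1 and R2 and 19.4 CPM in R3. With all libraries Dusp1 was called too, but that call was lost under several alternatives. Of 25 immediate-early transcription factor genes, 6 held lower (24%, against 7.75%): Atf3, Nr4a3, Maff, Klf6, Klf10 and Fosl2. Nr4a3, an orphan nuclear receptor, had an interaction of -3.28 ± 0.50, and Atf3, a stress-induced repressor of cytokine genes, one of -2.39 ± 0.20. The rest of that list was divided among the libraries, as described below for Egr1, Fos and Fosb.

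Genes that held lower, with a mean of at least 3 log2 CPM, were ranked by the smallest of their 3 single-library interactions in size, and the first 12 were, in that order, Il12b, Il6, Rnd3, Ccng2, Cd69, Adora2a, Il1a, Sdc4, Mex3b, Dyrk2, Arhgef3 and Spry1. They were chosen on these libraries, so their values are a description. In all 12 the WT LPS DMSO libraries lay above the unstimulated ones (31.8% of all tested genes) and did not overlap with WT LPS defactinib (62.5%). In 11 the IRF5 KO LPS DMSO libraries lay below WT LPS DMSO (27.3% of all tested genes), and in 10 the IRF5 KO LPS defactinib libraries lay above all IRF5 KO LPS DMSO libraries (14.1%). Interactions ranged from -4.02 to -6.84 with all libraries, with adjusted p of at most 0.00118 (edgeR).

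Ccng2, a cyclin linked to cell cycle exit (chr5:93267257-93276231, plus strand, mm10), had the smallest error relative to its size among them. It stood at 258, 272 and 245 CPM in WT LPS DMSO, 14.8, 11.4 and 12.6 CPM in WT LPS defactinib, 59.6, 56.6 and 63.2 CPM in IRF5 KO LPS DMSO and 98.9, 98.2 and 98.7 CPM in IRF5 KO LPS defactinib. The 4 groups did not overlap, and the interaction was -5.04 ± 0.14 (adjusted p = 2.4e-12 from edgeR) with all libraries and -4.92 ± 0.17 with R3 alone. Rnd3, an atypical small GTPase that loosens the actin cytoskeleton, stood at 342, 342 and 362 CPM in WT LPS DMSO and 10, 4.93 and 4.78 CPM with defactinib. In IRF5 KO LPS DMSO it stood at 18, 19.6 and 77 CPM, so that R3 was the highest, and the interaction was -7.11 ± 0.43 with R1 and -4.99 ± 0.37 with R3. Arhgef3, a guanine nucleotide exchange factor for small GTPases, stood at 109, 113 and 113 CPM in WT LPS DMSO, 11.6, 9.62 and 10.1 CPM in WT LPS defactinib, 55.8, 49.7 and 52.3 CPM in IRF5 KO LPS DMSO and 81.4, 78.8 and 79.4 CPM in IRF5 KO LPS defactinib. Its interaction was -4.02 ± 0.12, and its 3 IRF5 KO LPS DMSO libraries lay within their range of 49.7 to 55.8 CPM.

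Surface proteins were among the same 12. Cd69, an early activation antigen, stood at 373, 309 and 230 CPM in WT LPS DMSO and 11.5, 8.04 and 12.4 CPM with defactinib. The knockout libraries held 97.6, 98.5 and 92.7 CPM with DMSO and 106, 99 and 104 CPM with defactinib, an interaction of -4.93 ± 0.25. Sdc4, a heparan sulphate proteoglycan of focal adhesions, had an interaction of -4.58 ± 0.19 and stood at 840, 899 and 971 CPM in WT LPS DMSO against 71.4, 56.9 and 67.4 CPM with defactinib. Adora2a, the adenosine receptor that dampens macrophage activation, stood at 189, 181 and 168 CPM in WT LPS DMSO and 8.21, 7.27 and 23 CPM with defactinib. Its interaction was -4.79 ± 0.45. Adora2b, P2ry2 and P2ry14 held lower too, 4 of 15 purinergic and adenosine receptors (26.7%, against 7.75% of all tested genes), while Adora3, P2ry1, P2ry6 and P2rx7 passed higher with R3 only. Dyrk2, a protein kinase, had an interaction of -4.19 ± 0.16 and Mex3b, an RNA-binding protein, one of -4.40 ± 0.20. Mex3b was the 1 gene of the 12 with IRF5 KO LPS DMSO above WT LPS DMSO, at 25.3, 24.6 and 28.2 against 21.1, 20.4 and 15.3 CPM.

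Outside inflammation, 7 of 20 genes of cholesterol synthesis and uptake held lower (35%, against 7.75% of all tested genes), among them the synthesis enzymes Hmgcs1, Fdft1 and Sqle, the sterol sensor partner Insig1 and the sterol carrier Stard4. Of 20 genes of transcription elongation, Brd2, Aff1, Aff4 and Ccnt1 held lower (20%), and Brd2, a reader of acetylated histones, had an interaction of -2.79 ± 0.15. Among 34 cell cycle genes the inhibitors Cdkn1a and Cdkn1b and the proliferation antigen Mki67 held lower (8.82%, near the 7.75% of all tested genes). Cdkn1a, which encodes p21, had an interaction of -2.67 ± 0.28. The numbered zinc finger genes had 49 of 317 lower (15.5%, against 7.75%) and 6 higher (1.89%, against 3.99%) with each library. With R1 and R2 only, 84 were lower (26.5%, against 8.96% of tested genes).

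Of 32 oxidative phosphorylation genes and 83 genes of cytosolic ribosomal proteins, none held in either direction with each library in edgeR's test. The median interaction with R1 alone was 0.20 for the former and 0.55 for the latter, and with R3 alone it was -0.17 and -0.11. Of 31 lysosomal genes only Ctsl held lower (3.23%), and of 12 genes of MHC class II presentation none held. Of 30 genes of integrins and focal adhesion, the structures at which FAK and PYK2 act, Itga4, Itgav and Arhgap26 held lower (10%, near the 7.75% of all tested genes). In 18 targets of NRF2, Nfe2l2, Slc7a11 and Txnrd1 held lower (16.7%). In 22 genes of glycolysis and hypoxia Adm and Hk2 held lower (9.09%), and of 22 genes of ATF4 and the unfolded protein response Trib3 and Dnajb9 held lower (9.09%) and Ddit4 higher, shares near that of all tested genes. Mylip was the 1 of 9 LXR targets that held lower (11.1%).

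**Figure D3:**
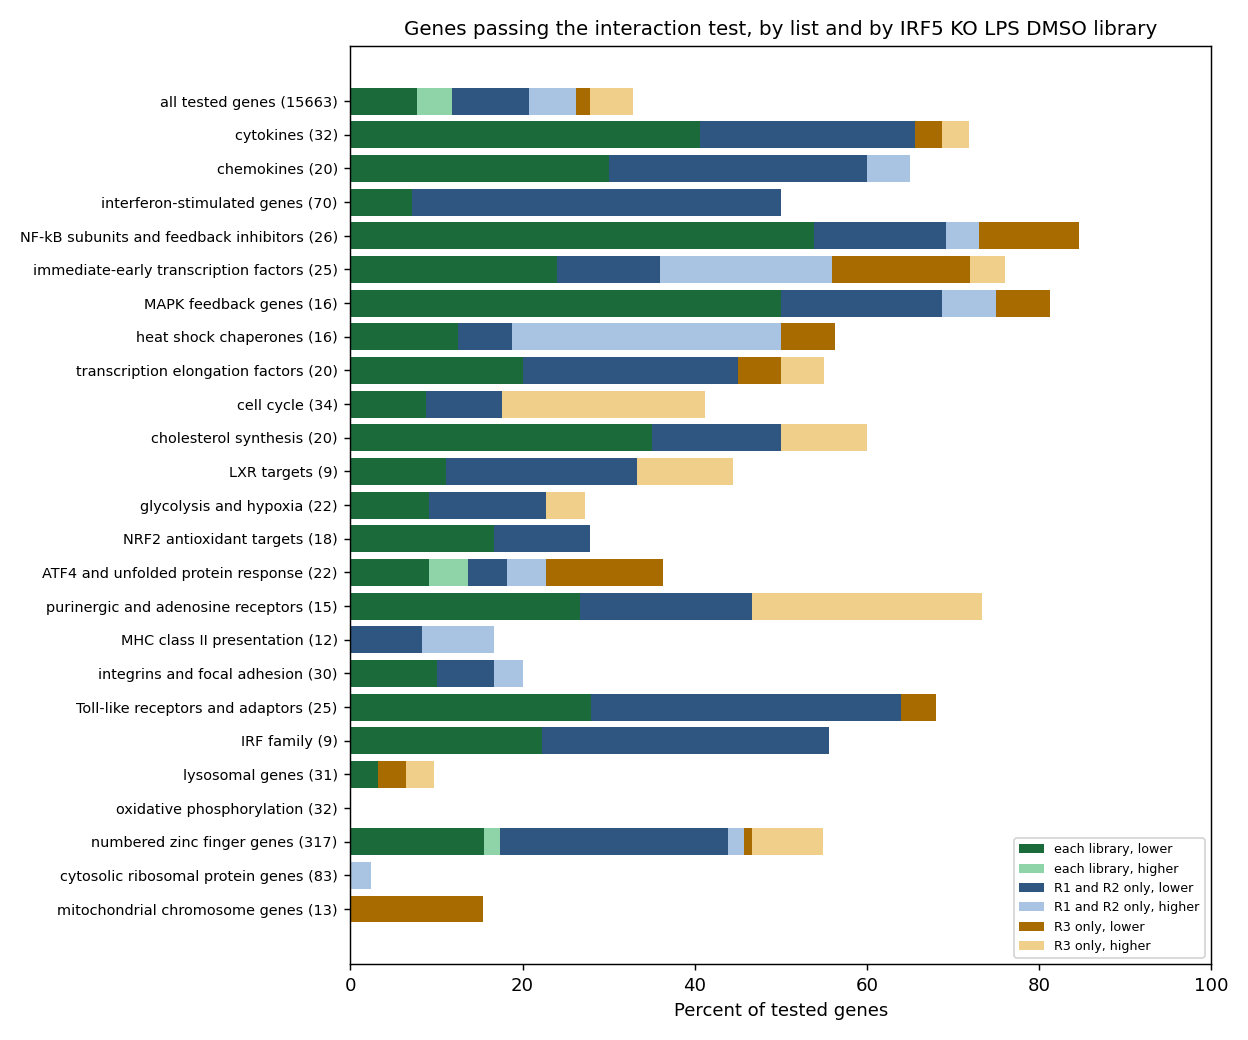
For each gene list, with its number of tested genes, the percent called with each IRF5 KO LPS DMSO library (green), with R1 and R2 only (blue) or with R3 only (yellow to brown), dark for a lower and light for a higher interaction, with genes of other patterns not drawn. All tested genes are the top bar; NF-kB regulators (53.8%), MAP kinase feedback genes (50%) and cytokines (40.6%) have the longest dark green segments against 7.75% of all tested genes, and interferon-stimulated genes are mostly dark blue.

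The 625 genes that held higher had lower levels, with a median of 2.06 log2 CPM over the 12 libraries against 4.47 for the 1214 that held lower and 3.29 for all tested genes. Only 210 of them reached a mean of 3 log2 CPM. Of the 24 functional lists, the numbered zinc finger genes had 6 members among them, 1.89% of the list against 3.99% of all tested genes. ATF4 and unfolded protein response genes had Ddit4 (4.5%), and the other lists had none. Of the 12 that the rule selected, 11 are named here: Ier5l, Asb2, Ms4a4a, Ptpn7, Tns4, Relt, Bmyc, Lpar6, Il6ra, Synpo and Dpysl5. These too were chosen on the same libraries. In all 12 the WT LPS groups did not overlap (62.5% of all tested genes), in 10 the WT LPS DMSO libraries lay below the unstimulated ones (32.8%), and in 11 all 3 IRF5 KO LPS DMSO libraries lay above WT LPS DMSO (23.6%).

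Il6ra, the ligand-binding chain of the IL-6 receptor, stood at 2.81, 2.87 and 4.04 CPM in WT LPS DMSO and 17.8, 19.6 and 21.2 CPM with defactinib. The IRF5 KO level was 11.3, 11.6 and 21.8 CPM with DMSO and 11.9, 13.7 and 12.9 CPM with defactinib, an interaction of 2.81 ± 0.30. The receptor and its cytokine Il6 thus had interactions of opposite sign.

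Ptpn7, a tyrosine phosphatase of MAP kinases, stood at 20.9, 15.6 and 20.2 CPM in WT LPS DMSO and 94.5, 102 and 96.1 CPM with defactinib. The knockout libraries held 38, 39.4 and 120 CPM with DMSO and 27.3, 28.5 and 26.9 CPM with defactinib. Its interaction was 3.63 ± 0.45, at 2.83 with R1 and 4.53 with R3. Relt, a receptor of the TNF receptor family, showed the same order: 8.24 and 8.93 CPM in R1 and R2 and 41.4 CPM in R3. Its interaction was 3.68 ± 0.64. Both genes fell with defactinib in IRF5 KO cells when R3 was the only DMSO library, Ptpn7 by 2.14 and Relt by 2.78 on the log2 scale. Synpo, an actin-associated protein, had an interaction of 2.98 ± 0.34, and Lpar6, a receptor for lysophosphatidic acid, one of 2.77 ± 0.40. Tns4, a tensin that binds integrin tails, stood at 4.10, 2.40 and 3.41 CPM in WT LPS DMSO and 16.1, 11.6 and 16.2 CPM with defactinib, an interaction of 2.79 ± 0.27. Ier5l had the largest value, 7.73 ± 1.12, from 0.348 to 0.381 CPM in WT LPS DMSO and 20.9 to 99.8 CPM with defactinib. IRF5 KO LPS DMSO held 35.7, 35.2 and 2.27 CPM of Ier5l, and its interaction was 8.29 with R1 and 4.36 with R3.

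**Figure D4:**
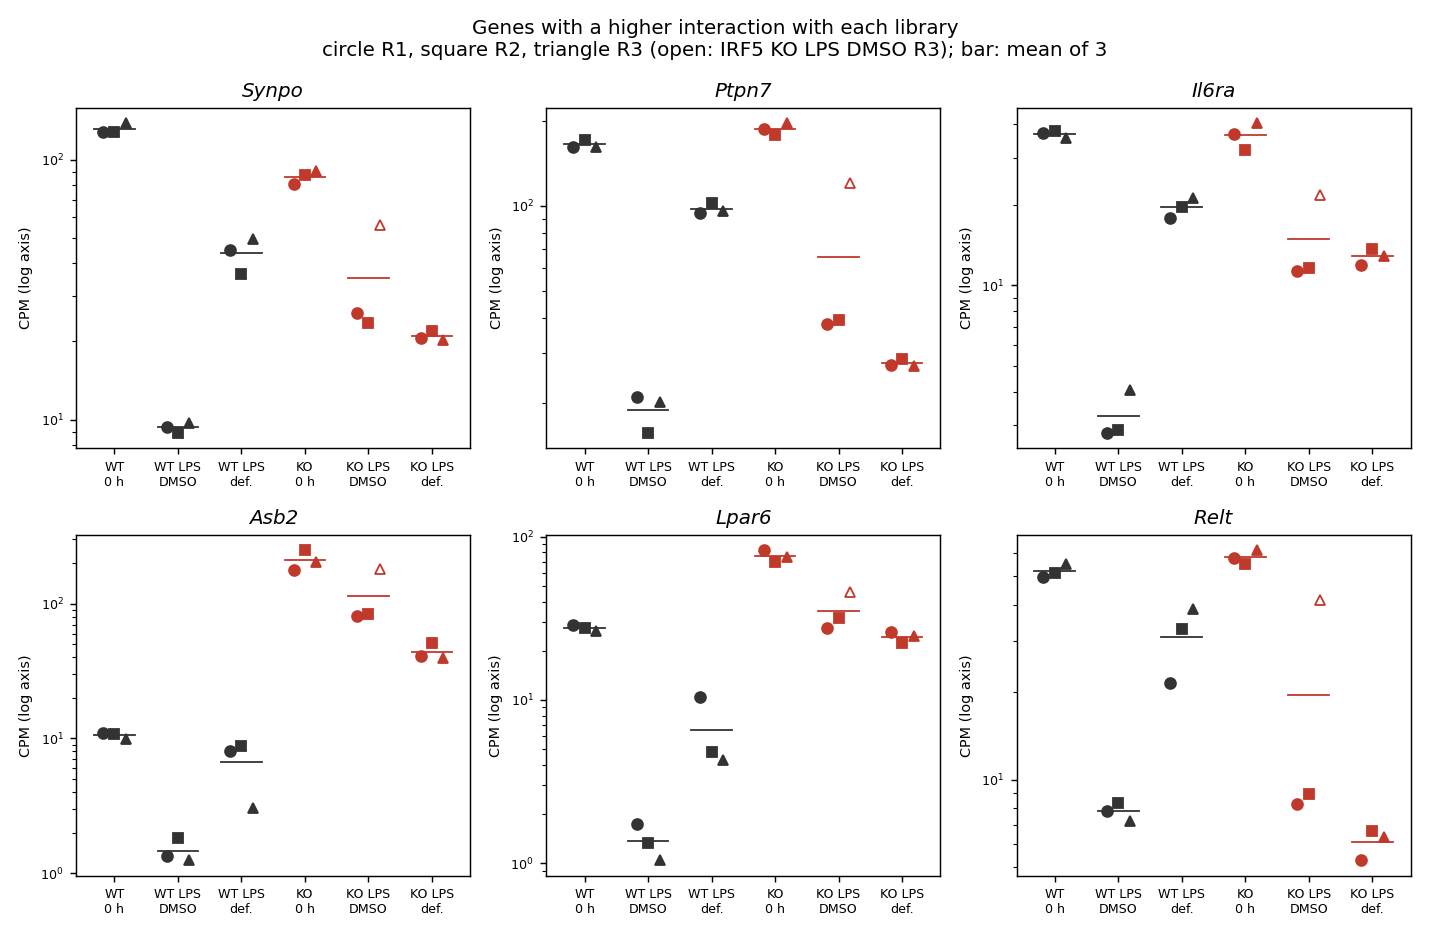
CPM on a log axis in every library for 6 genes with a higher interaction with each library, drawn as for the genes with a lower one. WT LPS DMSO is the lowest of the 6 groups in 5 panels, as for Il6ra from 2.81 to 4.04 CPM, while in Relt the IRF5 KO LPS defactinib libraries are lower, and the open triangle for R3 lies above R1 and R2 in Ptpn7, Il6ra, Asb2, Lpar6, Synpo and Relt.

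The 6 unstimulated libraries do not enter the interaction value, though they share in the estimate of spread behind its calls. Without them 2989 interactions were called and 1666 genes held with each library. Between unstimulated WT and IRF5 KO cells, 1145 genes differed (7.31%), 595 higher in WT (3.80%) and 550 lower (3.51%). Of the 625 genes that held higher, 95 differed before LPS (15.2%), 21 higher (3.36%) and 74 lower (11.8%) in WT. Of the 1214 that held lower, 72 differed (5.93%), 38 higher (3.13%) and 34 lower (2.80%). Among the higher genes the share lower in WT before LPS was 11.8% against 3.51% of all tested genes, and the difference between these shares was not tested.

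Of the 12 selected genes that held higher, 6 were lower in unstimulated WT than in unstimulated IRF5 KO (3.51% of all tested genes). The 6 were Asb2, Ms4a4a, Tns4, Bmyc, Lpar6 and Dpysl5. The 12 were chosen for the size of their interaction, so this count is a description. Asb2, a ubiquitin ligase subunit that degrades filamins, stood at 11, 10.7 and 9.98 CPM in unstimulated WT and at 179, 249 and 203 CPM in unstimulated IRF5 KO libraries. The log2 difference was -4.32 ± 0.38 (adjusted p = 1.6e-06 from edgeR). After LPS it stood at 1.34, 1.82 and 1.25 CPM in WT with DMSO and 8.05, 8.81 and 3.03 CPM with defactinib. The IRF5 KO libraries stood at 81.1, 83.8 and 180 CPM with DMSO and 40.7, 51.4 and 39.5 CPM with defactinib, an interaction of 3.57 ± 0.51. Dpysl5, of the collapsin response mediator family, differed by -2.40 ± 0.28 before LPS and had an interaction of 2.46 ± 0.38. Ms4a4a, a macrophage membrane protein, differed by -2.32 ± 0.53 and had an interaction of 3.06 ± 0.73, with 36.5 CPM in WT LPS defactinib R3 and 5.49 and 7.24 CPM in R1 and R2. Of the 12 named genes that held lower, Sdc4 (1.65 ± 0.14) and Spry1 (2.06 ± 0.26) were higher in unstimulated WT and Cd69 was lower (-1.13 ± 0.18). Over all tested genes these shares were 3.80% and 3.51%.

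Markers of other cell types were compared over the same libraries, because fewer cells of a type and less RNA per cell cannot be told apart in bulk RNA. The 12 neutrophil markers summed to 284 to 357 CPM in WT LPS DMSO and 334 to 466 CPM in WT LPS defactinib. In IRF5 KO they summed to 1308 to 1659 CPM with DMSO and 2334 to 2534 CPM with defactinib, and to 1351 to 1992 CPM at 0 h. No neutrophil marker held with each library, of 11 tested. Macrophage markers summed to 8791 to 9152 CPM in WT LPS DMSO, 10930 to 15640 CPM in WT LPS defactinib, 11530 to 12400 CPM in IRF5 KO LPS DMSO and 17290 to 18380 CPM in IRF5 KO LPS defactinib, so that the markers of the labelled cell type were present in every library. Dendritic cell markers, 11 of 12 tested, summed to 15690 to 16540 CPM in WT LPS DMSO and 14210 to 16110 CPM in WT LPS defactinib. They summed to 11870 to 12590 CPM in IRF5 KO LPS DMSO and 9129 to 9443 CPM in IRF5 KO LPS defactinib. Before LPS they summed to 8907 to 9103 CPM in WT and 7294 to 8956 CPM in IRF5 KO. Ccl22, a chemokine in this list, stood at 12320 to 14080 CPM in WT LPS DMSO and 6064 to 6803 CPM in IRF5 KO LPS DMSO. In unstimulated WT it stood at 2754 to 3224 CPM, so this sum is not a measure of dendritic cells alone. Of the 11 dendritic cell markers tested, Dpp4 and Batf3 held higher (18.2%, against 3.99% of all tested genes). Ccr7 and Zbtb46 held lower (18.2%, against 7.75%). Of the 12 macrophage markers, 1 held higher (8.33%) and 2 lower (16.7%). Markers of mast cells and basophils summed to at most 113 CPM with Tpsab1 at 0 in all libraries. Markers of T, B and NK cells summed to at most 6.96 CPM with Gzma at 0. Gata2, a mast cell and basophil factor in the first of these lists, held lower (-2.53 ± 0.39) and stood at 3.17 to 3.35 CPM in unstimulated WT and 30.8 to 34.1 CPM in unstimulated IRF5 KO. The part of such cells in the interaction was not tested.

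Interferon-stimulated genes showed the dependence on the library most fully. Of 70 tested, 5 held lower with each library (Isg15, Ifit2, Ifih1, Daxx and Slfn9; 7.14%, near the 7.75% of all tested genes), and 30 passed lower with R1 and R2 only (42.9%, against 8.96%). The median effect of defactinib on the list was -2.82 in WT. In IRF5 KO it was 0.06 with R1 alone, 0.02 with R2 alone and -2.50 with R3 alone, so that the median interaction was -2.86 with R1 and -0.19 with R3. Ifit1, which binds viral RNA (chr19:34640871-34650009, plus strand, mm10), stood at 2814, 2905 and 2682 CPM in WT LPS DMSO and 5.79, 3.49 and 30.8 CPM with defactinib. The IRF5 KO level was 11.1, 10.8 and 574 CPM with DMSO and 17.6, 16.5 and 17.4 CPM with defactinib. R1 and R2 lay below the IRF5 KO defactinib libraries and R3 far above them. The interaction was -8.35 ± 1.36 with R1 and -2.62 ± 1.06 with R3 (adjusted p = 0.081 from edgeR). With all libraries it was -4.18 ± 1.57 (adjusted p = 0.048) and lost its call under 19 of the alternatives tried, the smallest value being -3.59 without IRF5 KO LPS DMSO R1 or R2. Rsad2, the antiviral enzyme viperin, stood at 14.6, 13 and 1134 CPM in IRF5 KO LPS DMSO and 4733 to 5713 CPM in WT LPS DMSO. Its interaction was -7.15 ± 1.56 with R1 and -0.83 ± 1.21 with R3. Isg15, a ubiquitin-like modifier, held with R3 at -1.75 ± 0.61 (adjusted p = 0.042 from edgeR) and with R1 at -3.96 ± 0.66, with 89.3, 84.9 and 404 CPM in IRF5 KO LPS DMSO.

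The promoters of a few of these genes are shown because Il6, Nfkbia and Cxcl10 held with each library while Ifit1 and Rsad2 depended on R1 and R2. Each sequence is the 250 bases before the start site, from RefSeq on GRCm38.p6, on the strand of the gene. RefSeq's start site is the gene's start in the deposited counts in 4 of the 5, and in Ifit1 it lies 18 bases inside the gene, at 34640889 against 34640871. Capitals mark matches, on either strand and in all 5 promoters, to the NF-kB letters GGGANTTTC, the AP-1 letters TGANTCA and the interferon response letters GAAANNGAA. Il6 is at chr5:30012864-30013113 (plus strand), Nfkbia at chr12:55492648-55492897 (minus strand), Cxcl10 at chr5:92348890-92349139 (minus strand), Ifit1 at chr19:34640639-34640888 (plus strand) and Rsad2 at chr12:26456453-26456702 (minus strand).
Il6: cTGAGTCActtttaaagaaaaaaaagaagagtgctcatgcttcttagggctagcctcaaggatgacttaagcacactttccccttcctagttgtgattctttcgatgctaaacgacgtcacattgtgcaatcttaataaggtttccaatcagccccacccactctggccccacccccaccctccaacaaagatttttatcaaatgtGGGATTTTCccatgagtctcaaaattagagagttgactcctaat
Nfkbia: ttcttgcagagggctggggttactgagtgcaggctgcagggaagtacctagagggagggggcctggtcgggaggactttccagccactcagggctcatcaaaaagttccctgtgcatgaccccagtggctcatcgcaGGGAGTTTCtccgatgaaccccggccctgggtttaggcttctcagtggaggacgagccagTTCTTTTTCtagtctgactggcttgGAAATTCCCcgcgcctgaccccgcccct
Cxcl10: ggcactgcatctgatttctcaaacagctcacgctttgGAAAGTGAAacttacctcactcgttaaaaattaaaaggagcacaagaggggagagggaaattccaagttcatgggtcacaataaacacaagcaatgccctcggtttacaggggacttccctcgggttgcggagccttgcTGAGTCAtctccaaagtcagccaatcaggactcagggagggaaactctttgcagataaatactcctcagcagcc
Ifit1: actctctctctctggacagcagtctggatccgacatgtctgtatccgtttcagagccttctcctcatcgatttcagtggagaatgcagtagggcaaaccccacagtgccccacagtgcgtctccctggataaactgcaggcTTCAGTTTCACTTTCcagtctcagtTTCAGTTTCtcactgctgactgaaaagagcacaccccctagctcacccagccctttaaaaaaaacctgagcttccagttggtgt
Rsad2: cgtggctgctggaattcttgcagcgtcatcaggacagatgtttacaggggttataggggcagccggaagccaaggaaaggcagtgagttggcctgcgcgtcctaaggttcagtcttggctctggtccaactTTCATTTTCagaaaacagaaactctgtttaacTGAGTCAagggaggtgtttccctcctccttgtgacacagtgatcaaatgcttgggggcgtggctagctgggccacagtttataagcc

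Il6 holds 1 place for the NF-kB letters and 1 for the AP-1 letters. Nfkbia holds 2 for NF-kB and 1 for the interferon letters. Cxcl10 and Rsad2 each hold 1 place for the interferon letters and 1 for AP-1. Ifit1 holds 3 for the interferon letters, of which 2 overlap. Only these exact letters were searched, so a promoter listed without the NF-kB letters may hold NF-kB sites of another form. Such a promoter was found for 10662 of the tested genes. The interferon letters were found in 6.59% of these, in 6.03% of the genes that held lower with each library (895 with a promoter) and in 7.53% of those lower with R1 and R2 only. They were found in 4.71% of the genes that held higher. The NF-kB letters were found in 0.882% of tested genes, 1.45% of those that held lower and 0.642% of those that held higher. TGANTCA was found in 4.49%, 4.69% and 3.85% of the same sets, the cyclic AMP response letters TGACGTCA in 2.65%, 3.02% and 1.71%, the heat shock letters GAANNTTC in 5.07%, 4.25% and 4.07%, and the CArG box in 1.09%, 1.12% and 0.857%. The shares describe letters in a window, not binding, and their differences were not tested.

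Some heat shock and immediate-early genes were higher with R1 and R2, but neither list went one way. With R1 alone 8 of 25 immediate-early genes were called higher (32%, against 11.6% of all tested genes) and 9 lower (36%, against 18.3%). Of 16 heat shock chaperone genes 5 were called higher and 4 lower (31.3% and 25%), the latter near the share of all tested genes. Hspb1, Hspa1a, Hspa1b, Hsph1 and Hspa8 passed higher with R1 and R2 only, while Bag3 and Dnajb4 held lower with each library. Hspa1a, an inducible HSP70 with a near copy in Hspa1b, was counted from uniquely mapped read pairs only. It stood at 2.20, 1.97 and 2.01 CPM in WT LPS DMSO and 49.7, 52 and 28.8 CPM with defactinib. The knockout libraries held 75.3, 73.8 and 2.45 CPM with DMSO and 56, 69.3 and 56.8 CPM with defactinib. R1 and R2 were at the level of the defactinib libraries and R3 at that of WT LPS DMSO, and the interaction was 4.71 ± 0.34 with R1 and -0.20 ± 0.39 with R3. Fos, a subunit of AP-1, gave 64.3, 61.6 and 4.01 CPM in IRF5 KO LPS DMSO and an interaction of 4.21 ± 0.34 with R1 and 0.25 ± 0.37 with R3. Gm26917 had an interaction of 8.82 ± 0.56 with R1 and 0.97 ± 0.56 with R3.

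In 62 genes R1 and R2 were both called with 1 sign and R3 with the other, and 21 of these were higher with R1 and R2 (0.134%). Genes called in opposite directions with R3 and only 1 of R1 and R2 are not among the 62. Egr1, a serum-induced zinc finger factor, stood at 16.9, 10.7 and 14.2 CPM in WT LPS DMSO and 538, 539 and 385 CPM with defactinib. The IRF5 KO libraries stood at 916, 885 and 6.99 CPM with DMSO and 771, 896 and 747 CPM with defactinib. The interaction was 5.32 ± 0.30 with R1 and -1.68 ± 0.33 with R3, both called. Fosb, Ier5, Ppp1r15a and the 3 further genes named by the rule, Prss47, Gpr141b and Gm11455, went the same way. Fosb had 2.85 ± 0.46 with R1 and -2.28 ± 0.61 with R3, and Ppp1r15a, a phosphatase subunit of the stress response, had 1.57 ± 0.18 and -1.28 ± 0.18. S1pr2, a receptor for sphingosine 1-phosphate, went the other way. It stood at 1.79, 1.78 and 31.3 CPM in IRF5 KO LPS DMSO against 15.7 to 16.9 CPM in WT LPS DMSO, with an interaction of -2.39 ± 0.40 with R1 and 1.77 ± 0.33 with R3. Tor4a, Zfp60 and Spata2l were alike in direction, and Tor4a had -1.66 ± 0.50 with R1 and 2.14 ± 0.44 with R3. With all libraries S1pr2 (0.32 ± 1.07) and Tor4a (0.72 ± 1.04) did not pass, and both became negative without IRF5 KO LPS DMSO R3, at -2.40 and -1.75.

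**Figure D5:**
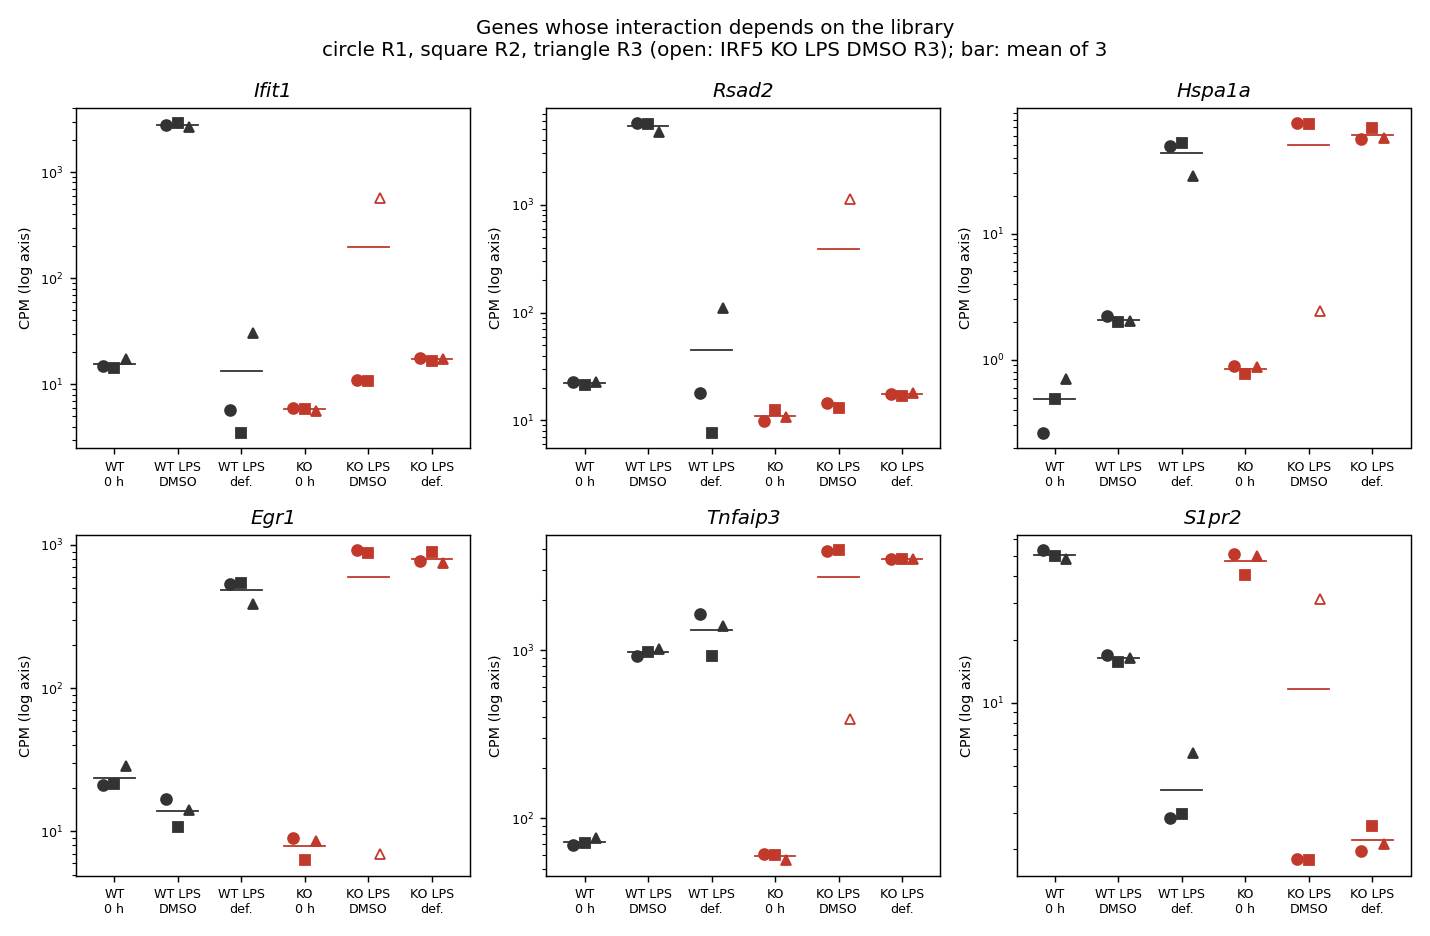
CPM on a log axis in every library for 6 genes whose interaction depended on the IRF5 KO LPS DMSO library, drawn as for the other genes. In each panel R1 and R2 of IRF5 KO LPS DMSO lie near the IRF5 KO LPS defactinib libraries and R3, the open triangle, apart from them, as for Ifit1 at 11.1 and 10.8 against 574 CPM.

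With R3 only, 775 genes passed higher and 252 lower (1.61%). Among the former were 4 of 15 purinergic and adenosine receptors (26.7%, against 4.95% of tested genes), named above, and 8 of 34 cell cycle genes (23.5%): Plk1, Cenpf, Cdc20, Aurkb, Ccna2, Bub1, Aurka and Top2a, which act in DNA replication and mitosis. Those lower with R3 only included the NF-kB regulators Tnfaip3, Nfkbiz and Nfkbib and the early genes Junb, Nr4a1, Nr4a2 and Btg2. The early gene Myc passed higher with R3 only. By median level the 775 genes stood at 2.08, 2.06 and 3.23 log2 CPM in IRF5 KO LPS DMSO R1, R2 and R3, 1.90 to 1.98 in IRF5 KO LPS defactinib and 3.41 to 3.55 in unstimulated IRF5 KO libraries. The genes that the rule named for these fits were low ones: Fam171a2, Hes1, Glt1d1 and Zfp493 among the higher, and Gm21987, Ifitm5, Prr18 and Gm15247 among the lower, stood at or below 1.99 CPM in all libraries. For R1 and R2 they were Gm22068, Gm22634, Gm24497 and L3mbtl1 among the higher and Mir7679, Gm17193, Gata6 and Cdc42ep1 among the lower. The 4 higher ones were listed at 0 in all WT LPS DMSO libraries and in R3, so no fold is given for them.

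A few further genes were chosen after their values were seen, for their part in LPS responses. Ptgs2, the inducible cyclooxygenase, held lower with an interaction of -3.75 ± 0.68. It stood at 752, 683 and 558 CPM in WT LPS DMSO, 78.8, 22.7 and 216 CPM in WT LPS defactinib, 411, 422 and 498 CPM in IRF5 KO LPS DMSO and 965, 912 and 971 CPM in IRF5 KO LPS defactinib. Ccr7, which guides dendritic cells to lymph nodes, held lower with -4.20 ± 0.66. Cxcl10, Irf1, Nfkbia, Dusp1, Isg15, Ifit1, Rsad2, Egr1, Fos, Hspa1a, Ppp1r15a and Gm26917 were chosen in the same way. Of the 85 genes that the rule named as the 3 highest of each list, 19 held lower with each library (22.4%, against 7.75% of all tested genes) and none held higher, and 55 were called in no single-library fit (64.7%, against 60.6%). At the edge of the threshold, Gm45902 was the last gene inside among the lower, with a smallest single-library value of -1.001, and Bhlhe40 (-0.9993) the first outside. Dhrs9 (1.004) and Phf19 (0.9992) were the last inside and the first outside among the higher.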

How the data were processed

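RNA-seq of 18 libraries of mouse BMDMs was read as gene counts. The authors deposited raw counts of read pairs per Ensembl gene, and per the labels and file headers reads were aligned with STAR to mm10 and counted over exons with featureCounts 1.6.3, reverse stranded. Replicates are described as biological, and p-values measure the spread between these samples. Library totals limit the precision of low genes. No column of another sample was present (0).

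Counts were tested in R 4.3.3 with edgeR 4.0.16 (filterByExpr, TMM, robust quasi-likelihood F test, 1 mean per group over all 18 libraries, two-sided, Benjamini-Hochberg over 15663 genes). A call needed an adjusted p below 0.05 and a log2 value beyond 1. The SE was the fold change divided by the square root of F. Single-library fits used 16 libraries. The pipeline was tested on simulated data. Class medians used log2(CPM + 0.1), means of single genes used edgeR's log2 CPM with a prior count of 2. Figures used Python 3.11.15 with matplotlib 3.10.9.

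The members and gene lists (24 functional, 5 marker) were chosen with earlier results of these data known. Genes named were a fixed set of Irf5, Ptk2, Ptk2b and 11 cytokine and chemokine genes, the 12 in each direction with the largest smallest single-library interaction among those that held with each library at a mean of at least 3 log2 CPM, 4 in each direction of the other classes, and the 3 highest of each list. Alternatives were DESeq2 size factors, library size alone, other filters, DESeq2 1.42.0, limma-voom 3.58.1, a replicate block, the LPS libraries only, glmTreat, no fold threshold and leaving out each of 18 libraries. A few genes that meet these rules are not reported here.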

Additional observations from a re-analysis of the deposited data

Results flagged for a closer look

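The genes below are those selected above for the size of their smallest single-library interaction, among genes that held with each library. They were chosen on these same libraries, so their edgeR interactions over all libraries are a description. These values use IRF5 KO LPS DMSO R1 and R2, whose labels were not tested. Among the genes that held higher with each library, the log2 interaction was 7.73 for Ier5l, 3.57 for Asb2, 3.06 for Ms4a4a, 3.63 for Ptpn7, 2.79 for Tns4 and 3.68 for Relt. It was 2.56 for Bmyc, 2.77 for Lpar6, 2.81 for Il6ra, 2.98 for Synpo and 2.46 for Dpysl5. Among those that held lower it was -6.84 for Il12b, -6.76 for Il6, -6.02 for Rnd3, -5.04 for Ccng2, -4.93 for Cd69 and -4.79 for Adora2a. It was -4.92 for Il1a, -4.58 for Sdc4, -4.40 for Mex3b, -4.19 for Dyrk2, -4.02 for Arhgef3 and -4.05 for Spry1.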

How the results depend on the processing

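The number of genes that held with each library stayed within 1.5 times of 1839 under DESeq2 size factors, DESeq2, limma-voom, both filters, the 12 LPS libraries and a replicate block, and of the 1839 genes 1799, 1810 and 1790 were shared with the same sign under the first 3. With library size alone the interaction count was 2853 higher and 1280 lower, and 1336 higher and 752 lower held with each library, of which 1377 in all were shared. A test against the fold threshold (glmTreat) gave 1357 interactions (490 higher, 867 lower), 737 that held (144 higher, 593 lower), 2602, 2576 and 1355 with R1, R2 and R3 alone, 2412 in WT, 355 before LPS and 0 in IRF5 KO, where 447 genes had an unadjusted p below 0.05 by glmTreat and 3657 by the quasi-likelihood test. With no fold threshold the counts were 5789 (2884 higher, 2905 lower), 3462 held (1448 higher, 2014 lower), 7479, 7450 and 5461 with R1, R2 and R3 alone, 8922 in WT, 527 in IRF5 KO and 2396 before LPS. Requiring 5 CPM in 3 libraries gave 1084 higher interactions, 2833 calls in WT and 598 before LPS, fewer genes being tested. Counting a gene as holding when it was beyond 1 in each single fit and called with all libraries gave 962 higher.

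The IRF5 KO arm was the least stable: 144 genes became 79 without a filter, 523 with DESeq2, 95 with limma-voom, 82 with a replicate block, 21 with the LPS libraries only, and 76, 75 and 3185 with R1, R2 and R3 alone. Leaving out 1 library at a time gave 20 to 897 there, 885 without IRF5 KO LPS DMSO R1 and 897 without R2. It gave 3218 to 4993 interactions (1577 to 2003 higher, 1621 to 2990 lower), 4142 to 4794 in WT, 888 to 1359 before LPS, and 4483 to 5174, 4450 to 5145 and 3038 to 3583 with R1, R2 and R3 alone. The genes that held numbered 1746 to 4170 (585 to 1511 higher, 1116 to 2659 lower), with 4170 and 2990 both reached without IRF5 KO LPS DMSO R3. With that library left out only R1 and R2 had to agree.

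Of the named genes, 4 changed sign. Ccl5 was -0.63 with limma-voom, -0.33 with a replicate block and -1.51 to 0.78 leaving out 1 library. Tnfaip3 was -0.56, -0.020 and -0.24 to 0.59, S1pr2 was -0.95, -0.31 and -2.40 to 0.86, and Tor4a was -0.51 with limma-voom and -1.75 to 1.25 leaving out 1 library. The cause of these sign changes was not tested. Other named genes lost a call made with all libraries. Dusp1 lost it without a filter (-1.41), with the LPS libraries only (-1.38) and without any of several single libraries. Egr1 (2.93), Fos (2.75) and Hspa1a (2.90) lost it with limma-voom. Spred1 (-1.04) and Il1rn (-0.82) lost it with library size alone, and Il1b had no adjusted p with DESeq2. Some genes gained a call, such as Irf8 and Ccnd2 without IRF5 KO LPS DMSO R3. Over 18 same-numbered pairs in the 4 LPS groups, deviations from group means correlated with a median of -0.0082 (range -0.105 to 0.278). The correlation was over 0.1 in 3 pairs. In IRF5 KO LPS DMSO R3 stood apart from R1 and R2, which can hide a pairing, so pairing is not excluded. With a replicate block 1815 genes held, 1724 of them shared.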
